A study of Mus musculus with 6 samples.

Results

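Carboxylesterases are serine hydrolases that split ester, amide and thioester bonds, and the liver makes more of them than most other mouse tissues do. Hepatocytes keep most family members in the lumen of the endoplasmic reticulum, where they act on stored lipid and on drugs such as ester prodrugs, and some are secreted into plasma. Mice carry many tandem copies of the family on 1 chromosome, so neighbouring genes can be near-identical in sequence. The 10 members described here (Ces1c, Ces1d, Ces1e, Ces1f, Ces1g, Ces2a, Ces2c, Ces2e, Ces3a and Ces4a) were taken by symbol from a table of 55450 genes. All 10 passed the filter on low counts that left 14539 genes for testing.

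The tissue was the left liver lobe of 10-week-old mice whose strain is labelled C57BL/J. The knockout (KO) group held 3 LKB1 fl/fl mice and the wild-type (WT) group 3 mice labelled normal. Mice of both groups had received AAV8 Cre at 6 weeks of age, so the controls carried the virus and the recombinase too, and tissue was taken 4 weeks later. LKB1, encoded by Stk11, is the kinase that switches on AMPK and its relatives. The labels name neither the promoter that drove Cre nor the sex of a mouse. The mice were not pooled: each gave 1 library.

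Stk11 itself had 22.1, 14.4 and 11.4 CPM (counts scaled to a common library total) in KO 1 to KO 3 and 64.2 to 69.7 CPM in WT (log2 difference -2.06 ± 0.247 SE, adjusted p = 0.0167 in edgeR), a call lost without KO 2, KO 3, WT 2 or WT 3 (adjusted p = 0.0607 to 0.104). KO 1 and WT 1 carried Xist counts (42472 and 29243) and almost no Y-linked counts, whereas the other 4 libraries carried 6146 to 8199 Y-linked counts and at most 16 Xist counts. KO 1 had the most Stk11 of the KO libraries as well, so the Xist state and the remaining Stk11 cannot be told apart in that group. Results are therefore given over all 6 libraries, within the 4 that carry Y-linked counts (the Y libraries, 2 against 2), and for KO 1 against WT 1 (the Xist pair), which has no replicate check. As a check of the tissue, albumin (Alb) stood at 57064 to 95626 CPM in WT and 10394 to 50550 CPM in KO. The sum of the 5 hepatocyte markers examined was lower in KO (22706 to 66704 CPM) than in WT (75628 to 115927 CPM). Of the 5, 0 were called and 3 had an unadjusted p under 0.05, beside 3.37% and 26.3% of all genes. Alb was the largest term of that sum in every library. Alb, Apoa1 and Ttr were lower in every KO library, whereas Cps1 was higher in every KO library (log2 difference 1.17, adjusted p = 0.0983) and Serpina1a had a difference of 0.03 (adjusted p = 0.95). The part of these differences in the carboxylesterase values was not tested. Fewer cells of a type and less RNA per cell cannot be told apart in bulk liver.

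The 10 members form a pair of clusters on chromosome 8 (GRCm38). The Ces1 members lie on the minus strand between 93099015, where Ces1c ends its transcribed range, and 93337308, where Ces1g starts. The Ces2, Ces3 and Ces4 members lie on the plus strand between 104734003 (the start of Ces2a) and 105150109 (the end of Ces4a). All 10 are annotated as protein-coding in GENCODE M21, and values are totals over all exons of a gene. Over their longest open reading frames, pairs of members of the same subfamily (Ces1, Ces2, Ces3 or Ces4, by symbol) were 75.5% to 84.3% identical (13 pairs, median 79.2%) and pairs from different subfamilies 63.9% to 68.5% identical (32 pairs).

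Read sharing was examined first, because a copy can gain or lose counts from a near-identical neighbour. For each gene, every stretch of 76 bases (the read length) of its annotated transcripts was looked up in all other annotated transcripts. Ces1d, Ces1f, Ces1g and Ces4a shared 0 such stretches with any other gene, Ces2e 0.297% of them, Ces1e 0.914% and Ces1c 4.86%. The share was 11.2% for Ces2a, all with the gene Gm7208, 14.7% for Ces3a, all with Ces3b, and 21.65% for Ces2c, mostly with the pseudogene Ces2d-ps. Ces3a and Ces3b are 95.3% identical over 1713 coding bases and, after Ces2c, Ces3a is the member with the largest shared part, so its count and that of Ces3b are uncertain as separate values. Ces2c and Ces2a counts are uncertain in the same way. The stretch around the codon of the catalytic serine, the residue that attacks the ester, shows how few bases can tell the pair apart. Capitals mark bases that differ between Ces3a and Ces3b (bases 649 to 741 of each reading frame), and the serine codon, number 232, is the tct in the run aactctgctgga.
Ces3a: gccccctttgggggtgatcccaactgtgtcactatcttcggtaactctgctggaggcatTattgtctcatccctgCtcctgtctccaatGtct
Ces3b: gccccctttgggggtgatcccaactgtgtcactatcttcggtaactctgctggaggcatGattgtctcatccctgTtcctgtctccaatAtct

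By contrast, the same stretch differs at 12 of 93 bases between Ces1c and its neighbour Ces1b, which are 91.1% identical. Capitals again mark the bases that differ within the pair, and the tca that follows AGAG in Ces1c and GTCA in Ces1b is serine codon 221.
Ces1c: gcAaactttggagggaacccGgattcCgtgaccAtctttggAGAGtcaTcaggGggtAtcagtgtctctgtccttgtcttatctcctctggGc
Ces1b: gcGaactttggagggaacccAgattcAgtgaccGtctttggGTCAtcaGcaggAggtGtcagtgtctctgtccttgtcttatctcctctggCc

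The same site is shown for Ces1d, Ces2a and Ces4a, to let the distance between subfamilies be seen beside these close pairs. Here capitals mark only the serine codon.
Ces1d: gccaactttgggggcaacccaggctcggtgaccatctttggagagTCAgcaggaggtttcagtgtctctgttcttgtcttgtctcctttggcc
Ces2a: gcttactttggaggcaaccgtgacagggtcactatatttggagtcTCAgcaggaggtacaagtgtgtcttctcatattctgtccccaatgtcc
Ces4a: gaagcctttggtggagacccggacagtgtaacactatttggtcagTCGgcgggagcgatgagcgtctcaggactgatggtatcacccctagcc

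In WT liver the members spanned a wide range of levels, compared here per kilobase of exon so that gene length does not enter. Ces1c, the secreted plasma carboxylesterase, was highest at 1311 ± 469 CPM per kilobase (SD, n = 3). Ces3a followed at 698 ± 343 and Ces1d at 379 ± 20.3 CPM per kilobase, and the ranges of these 2 genes overlapped because WT 1 had 302 CPM per kilobase of Ces3a against 883 and 908 in WT 2 and WT 3. Ces2a, Ces1f, Ces1g, Ces1e and Ces2e came next, from 171 ± 33.2 down to 70.1 ± 14.1 CPM per kilobase, each overlapping its neighbour in this order. Ces2c had 31.7 ± 23.5 and Ces4a 2.24 ± 1.77 CPM per kilobase, and both stood apart from the members above them.

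Together the 10 members took between 0.709% and 0.740% of all counts in the WT libraries. They took 0.453% in KO 1, 0.131% in KO 2 and 0.158% in KO 3. The WT libraries were thus close to each other in sum (7224 to 7596 CPM), although WT 1 reached that sum with more Ces1c and less Ces3a. All KO libraries lay under them, at 4364, 1211 and 1710 CPM.

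**Figure D1:**
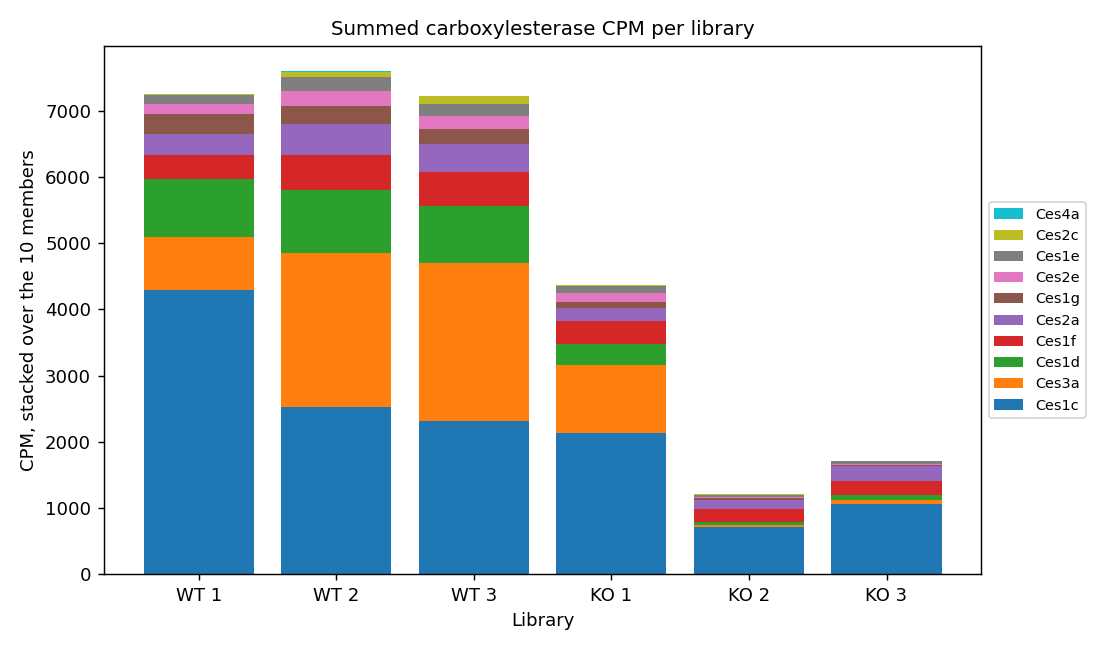
CPM of the 10 members stacked for each library (y axis, linear from 0; x axis, the 3 WT and 3 KO libraries; each colour is 1 gene). The 3 WT bars reach 7224 to 7596 CPM, the KO 1 bar 4364 CPM and the bars of KO 2 and KO 3 1211 and 1710 CPM.

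Over all 6 libraries every member had a negative log2 difference (KO minus WT), with a median of -2.02, beside a median of 0.01 over all genes tested. The members were chosen with earlier results of these data known, so their shared direction is a description and not a test. Only Ces4a passed the threshold of 0.05 on the adjusted p-value (edgeR, quasi-likelihood), so 1 of 10 members was called as lower and 0 as higher. Ces4a had passed the filter on low counts through its WT libraries alone. Among all genes tested, 1.22% were called as lower and 2.15% as higher, 3.37% in all. Without KO 1 there were 9 members called as lower (all but Ces2c), beside 14.2% of all genes, and without KO 2, KO 3, WT 2 or WT 3 there were 0. Unadjusted p-values were under 0.05 for 8 members, and 11.7% of all genes were lower at that level, 26.3% differing in either direction. Every KO library lay under every WT library for 8 members, all but Ces2c and Ces3a, and the same held for 15.5% of all genes. Every KO library lay above every WT library for 0 members and for 16.9% of all genes.

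Among the Y libraries alone, all 10 members passed the threshold as lower in KO, where 16.1% of all genes were called as lower and 17.2% as higher. Their fitted log2 differences ran from -1.31 for Ces1f to -7.55 for Ces4a. Between KO 1 and WT 1 the ratios were smaller in size for all 10 members. Their median on the log2 scale was -0.70 with an offset of 0.1 CPM, against -3.22 from the same offset in the Y libraries, and Ces3a was higher in KO 1 than in WT 1. A fit over all 6 libraries with a term for the Xist state called 5 members as lower (Ces1c, Ces1d, Ces1g, Ces2a and Ces4a), where 4.99% of all genes were called as lower.

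**Figure D2:**
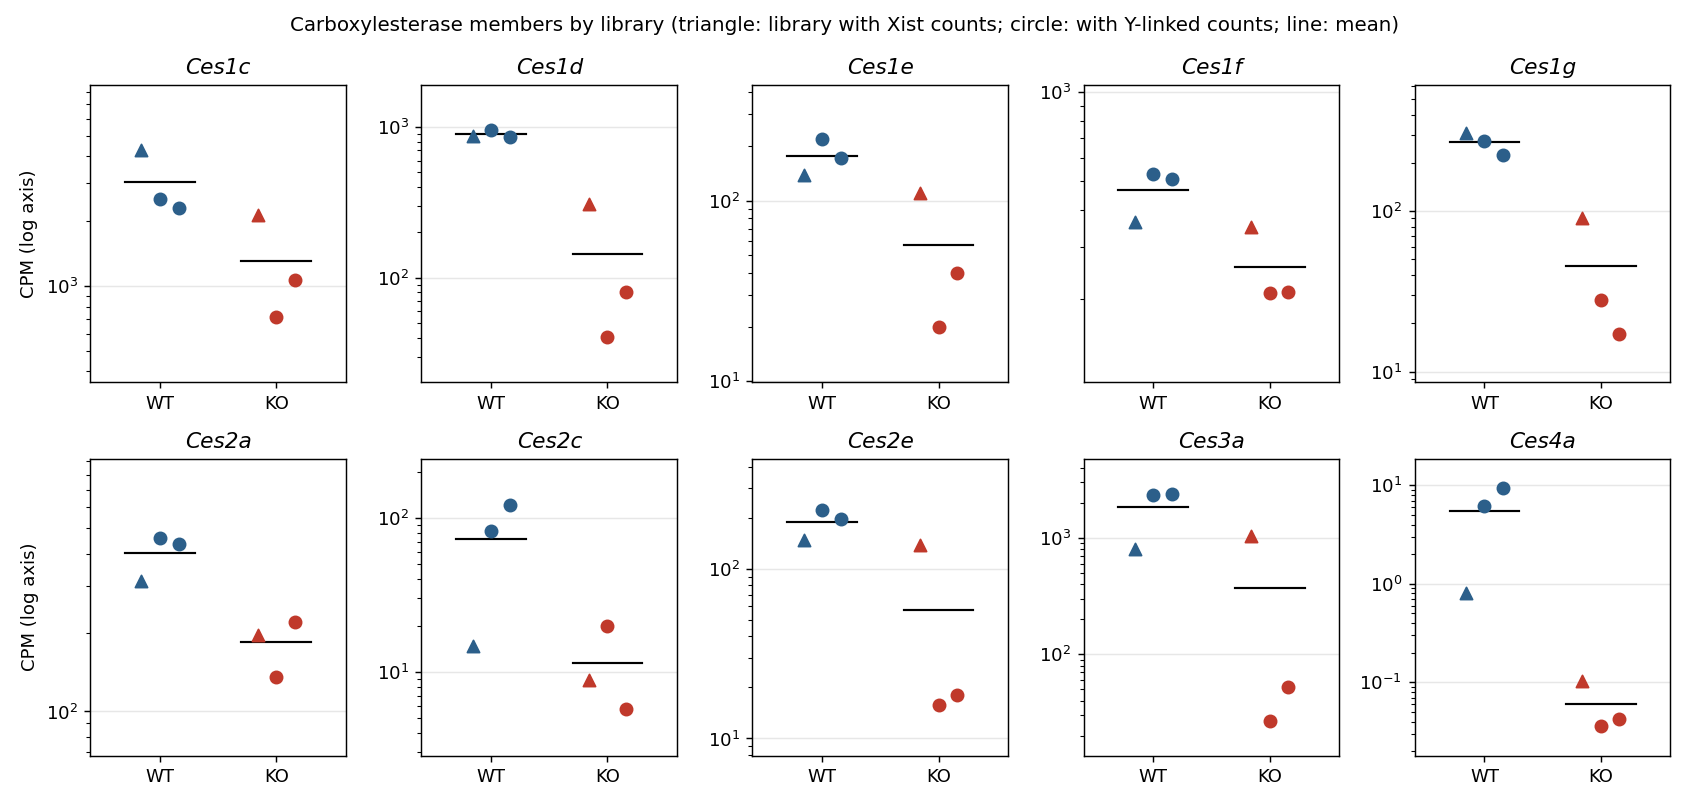
CPM of each member on a log axis, 1 panel per gene, with WT libraries in blue and KO libraries in red; triangles are the libraries with Xist counts, circles those with Y-linked counts, and the bar is the group mean. The groups do not overlap in 8 panels, and the KO triangle (KO 1) lies above both KO circles in 8 panels.

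The lipid hydrolases of the Ces1 cluster are described first. Ces1d (chromosome 8, 93166068 to 93197838), whose enzyme mobilises stored triacylglycerol for the assembly of very-low-density lipoprotein, had 310.5, 40.7 and 79.9 CPM in KO 1 to KO 3 and 876, 953 and 864 CPM in WT 1 to WT 3. All KO values lay far under the narrow WT range, and KO 1 was the highest of them. The log2 difference was -2.64 ± 0.716 (SE; adjusted p = 0.0836 in edgeR) over all libraries and -3.92 ± 0.367 (adjusted p = 0.00187) in the Y libraries. The Xist pair had a log2 ratio of -1.50.

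Ces1g (93302369 to 93337308), a further triacylglycerol hydrolase of the liver, had 91.0, 27.8 and 17.3 CPM in KO and 306, 275 and 222 CPM in WT. The groups did not overlap, and the highest KO library was again KO 1. Its log2 difference was -2.56 ± 0.607 (adjusted p = 0.0663 in edgeR) over all libraries and -3.47 ± 0.274 (adjusted p = 0.00116) in the Y libraries. Ces1f (93256236 to 93279747), also known as triacylglycerol hydrolase 2, differed less. It had 350.3, 209 and 211 CPM in KO and 364, 529 and 509 CPM in WT, so that KO 1 and WT 1 were nearly equal while KO 2 and KO 3 stood under the WT values of the same state. KO minus WT on the log2 scale was -0.86 ± 0.270 (adjusted p = 0.111) over all libraries and -1.31 ± 0.145 (adjusted p = 0.00306) in the Y libraries. Ces1d, Ces1f and Ces1g share no 76-base stretch with another gene, so their counts do not depend on how shared reads of that length were divided.

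Ces1e (93201218 to 93229619), known as egasyn, holds beta-glucuronidase in the endoplasmic reticulum. It had 110.2, 19.9 and 39.7 CPM in KO and 139, 218 and 172 CPM in WT. The groups were separate, but KO 1 came close to WT 1. The log2 difference was -1.64 ± 0.586 (adjusted p = 0.141 in edgeR) over all libraries and -2.72 ± 0.351 (adjusted p = 0.00475) in the Y libraries. Its partner beta-glucuronidase (Gusb) went the other way and rose, from 22.4, 25.9 and 26.4 CPM in WT to 37.2, 46.6 and 59.4 CPM in KO, a log2 difference of 0.94 ± 0.188 (adjusted p = 0.0489). The Gusb call was made in 6 of 14 alternative analyses. It was lost with DESeq2 size factors in edgeR, in limma voom and with a replicate block (adjusted p = 0.0508, 0.0532 and 0.0663). Leaving out any library but KO 1 also lost it (adjusted p = 0.115 to 0.211).

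Ces1c (93099015 to 93131283), the most abundant member, had 2133, 715 and 1065 CPM in KO and 4298, 2529.9 and 2309.9 CPM in WT. WT 1 was the highest library and each KO library lay under all WT libraries, KO 1 only narrowly. KO minus WT on the log2 scale was -1.22 ± 0.460 (adjusted p = 0.155 in edgeR) over all libraries, -1.45 ± 0.265 (adjusted p = 0.0126) in the Y libraries, and -1.01 in the Xist pair, so this was the member whose difference varied least between the states. Its direct neighbour Ces1b (93056728 to 93080017) is not one of the 10 members and did not share the direction. Ces1b had 78.9, 74.6 and 77.5 CPM in KO and 72.1, 60.5 and 53.3 CPM in WT, with a log2 difference of 0.31 ± 0.142 (adjusted p = 0.216). In the Y libraries it was 0.41 ± 0.113 (adjusted p = 0.0405), higher in KO.

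The upstream sequences of Ces1b and Ces1c are alike although the genes differed in direction. In an alignment of their RefSeq upstream windows (GRCm38.p6), 223 bases were paired and 208 of these were identical. That is 83.2% of the 250 alignment columns, which include inner gaps and leave out unpaired ends. Of the Ces1b windows, the one with the most bases identical to Ces1c was used. RefSeq and GENCODE M21 place the start of Ces1b at different bases, so part of its window is transcribed in M21.

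The Ces2 enzymes resemble the human intestinal and hepatic form CES2, which hydrolyses esters with a large alcohol group, and also act on acylglycerols. Ces2a (104734003 to 104741634) had 196, 136 and 220.1 CPM in KO and 313, 459.7 and 435 CPM in WT, with no overlap. Its log2 difference was -1.13 ± 0.246 (adjusted p = 0.0569 in edgeR) over all libraries and -1.33 ± 0.254 (adjusted p = 0.0141) in the Y libraries. Ces2a was, with Ces2c, an exception to the order seen elsewhere, since KO 1 was not its highest KO library.

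Ces2e (104926260 to 104934672) had 138, 15.8 and 17.9 CPM in KO and 148, 223 and 197 CPM in WT. KO 1 was thus close to WT 1, while KO 2 and KO 3 were far under every WT library. The log2 difference was -1.73 ± 0.832 (adjusted p = 0.238 in edgeR) over all libraries and -3.64 ± 0.148 (adjusted p = 0.000268) in the Y libraries. Ces2c (104847068 to 104854483) had 8.83, 19.8 and 5.71 CPM in KO and 14.7, 82.6 and 121 CPM in WT, and its groups overlapped because WT 1 lay under KO 2. Its log2 difference was -2.67 ± 0.795 (adjusted p = 0.099) over all libraries and -2.999 ± 0.577 (adjusted p = 0.0145) in the Y libraries. The Ces2c counts rest in part on the division of reads with Ces2d-ps, which had at most 6 counts in any library.

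Promoter windows of some Ces2 genes hold a shared element, looked for after the sequences had been seen. GGGCAAAG, searched on both strands, occurred in the upstream windows of Ces2a, Ces2e, Ces2f and Ces2g, 4 of the 15 family genes with a window. It was in 1.44% of 32851 windows of the same length, a share of windows and not of genes. Ces2a and Ces2e are the only members among the 7 with a window that hold it. It overlaps neither of the other motifs searched, AGGTCA (in Ces2a, Ces2h and Ces4a, and in 14.02% of windows) and TTCNNNGAA (in no member and 7.02% of windows). The stretches come from RefSeq (GRCm38.p6, plus strand): Ces2a chr8:104733908-104733967, Ces2e chr8:104926155-104926214, Ces2g chr8:104961576-104961635 and Ces2c chr8:104846970-104847029. Capitals mark the match as read on this strand, and Ces2c has none.
Ces2a: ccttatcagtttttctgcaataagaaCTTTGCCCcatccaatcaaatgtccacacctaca
Ces2e: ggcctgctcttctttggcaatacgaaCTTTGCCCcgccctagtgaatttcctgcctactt
Ces2g: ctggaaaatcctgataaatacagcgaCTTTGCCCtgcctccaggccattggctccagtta
Ces2c: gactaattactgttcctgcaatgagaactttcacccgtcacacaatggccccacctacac

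Ces3a (105048601 to 105058413), a liver carboxylesterase formerly named Es31, differed most between the states. It had 1026, 27.0 and 52.4 CPM in KO and 794, 2319 and 2385 CPM in WT. KO 1 exceeded WT 1, so the groups overlapped, whereas KO 2 and KO 3 stood 59.0-fold under WT 2 and WT 3 (offset 0.1 CPM). KO minus WT on the log2 scale was -2.31 ± 1.32 (adjusted p = 0.308 in edgeR) over all libraries and -5.89 ± 0.412 (adjusted p = 0.000871) in the Y libraries. Its near-copy Ces3b (105083753 to 105093929) had 97.0, 4.99 and 5.48 CPM in KO and 287, 523 and 593 CPM in WT, without overlap. Ces3b had a log2 difference of -3.71 ± 1.22 (adjusted p = 0.121) over all libraries and -6.74 ± 0.193 (adjusted p = 0.000162) in the Y libraries.

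Ces4a (105131800 to 105150109), a family member of little known function, was the single member called over all libraries. It had 6, 2 and 2 counts in KO 1 to KO 3 (0.103, 0.036 and 0.0424 CPM) and 41, 321 and 436 counts in WT 1 to WT 3 (0.81, 6.19 and 9.32 CPM). Every KO library lay under every WT library, but WT 1 was far under the other WT libraries. The fitted log2 difference was -6.41 ± 1.05 (adjusted p = 0.0325 in edgeR), a value that rests on few counts in KO. The gene passed the filter on low counts only through WT, the group where it was high. The ratio of WT to KO, from the summed counts, was 197 in the Y libraries (95% exact interval 76.6 to 725) and 7.85 in the Xist pair (3.31 to 22.6). These intervals cover counting error only. The call was lost without KO 2, KO 3, WT 2 or WT 3 (adjusted p = 0.113, 0.164, 0.150 and 0.138) in limma voom (adjusted p = 0.117) and with a replicate block (adjusted p = 0.0716).

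**Figure D3:**
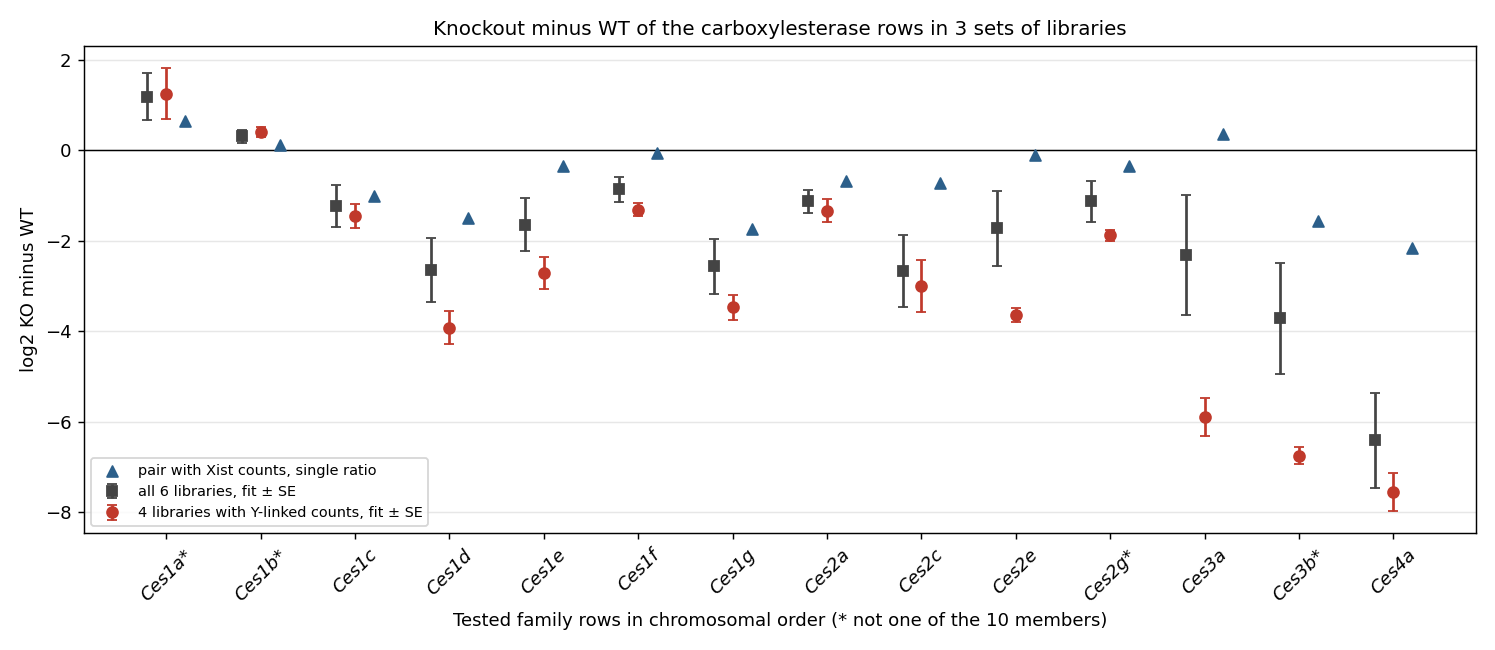
Log2 KO minus WT (y axis) of the 14 carboxylesterase rows that were tested, in chromosomal order; squares are fits over all 6 libraries, circles fits over the 4 Y libraries (bars, SE), and triangles single ratios of KO 1 to WT 1. Ces1a and Ces1b are above 0, all 10 members lie under 0 in both fits, and the triangle of Ces3a alone among the members is above 0.

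Whether the KO difference itself differed between the states was tested as an interaction over all genes, with 1 library of each group in the Xist state. The p-values therefore take their spread from the Y libraries alone and do not measure the spread between mice in the Xist state. The interaction passed the threshold for Ces2e and Ces3a, 2 of 10 members, where 2.9% of all genes were called and 1.71% were called as more negative in the Y libraries. It was more negative in the Y libraries by -3.54 ± 0.245 for Ces2e (SE; adjusted p = 0.00508 in edgeR) and by -6.26 ± 0.643 for Ces3a (adjusted p = 0.0139). Unadjusted p-values were under 0.05 for 7 members, all more negative in the Y libraries, and for 20.9% of all genes, 10.1% more negative in the Y libraries. Beyond the members, Ces3b (-5.17 ± 0.281, adjusted p = 0.00343) and Ces2g (-1.53 ± 0.204, adjusted p = 0.0253) passed it too. Ces1c and Ces2a had the smallest interaction terms, -0.43 ± 0.466 and -0.65 ± 0.432 (adjusted p = 0.639 and 0.438).

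Sums over a subfamily do not depend on how reads were divided among its own rows. All Ces1, all Ces2 and all Ces3 rows were therefore each added and tested in the members' place. The Ces1 and Ces2 sums leave out genes of other names that share stretches with their rows. Among these, Gm7208 shares 11.2% of the Ces2a stretches, and Gm8798 and Gm6831 share 10.9% and 3.51% of those of Ces2c. The division of reads with such genes can still move these 2 sums. The Ces1 sum was 3074, 1088 and 1492 CPM in KO and 6055, 4566 and 4131 CPM in WT, a log2 difference of -1.38 ± 0.422 (adjusted p = 0.104 in edgeR). The Ces2 sum was 381, 184 and 255 CPM in KO and 524, 812 and 797 CPM in WT, a log2 difference of -1.38 ± 0.318 (adjusted p = 0.0637). For both sums the KO libraries lay under the WT libraries. The Ces3 sum was 1123, 32.0 and 57.9 CPM in KO and 1081, 2843 and 2978 CPM in WT, so KO 1 and WT 1 were close, and the log2 difference was -2.51 ± 1.31 (adjusted p = 0.270). The interaction with the Xist state passed the threshold for the Ces3 sum (-6.07 ± 0.602, adjusted p = 0.0129), which the division of reads between Ces3a and Ces3b cannot affect. Leaving out KO 1 put all 3 sums past the threshold, at -1.94, -1.70 and -5.68 (adjusted p = 0.00603, 0.00767 and 0.00315). Among the Y libraries all 3 sums were called as lower, at -1.76, -1.88 and -6.02 (adjusted p = 0.00694, 0.0033 and 0.000692).

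Of the other 10 rows of the family, 4 passed the filter on low counts and 0 were called over all libraries, with 2 differences negative (Ces2g and Ces3b) and 2 positive (Ces1a and Ces1b). Unadjusted p-values were under 0.05 for 2 of the 4, and for 26.3% of all genes. Ces2g had 37.9, 12.4 and 11.4 CPM in KO and 48.1, 46.6 and 40.3 CPM in WT, with a log2 difference of -1.13 ± 0.460 (adjusted p = 0.179 in edgeR). It thus lay under WT in every KO library, with KO 1 nearest. Ces1a was close to the detection floor, at 14 to 23 counts in KO and 5 to 11 in WT. It would not have passed the filter on its WT libraries alone. Ces2f and Ces5a were at 0 counts in all 6 libraries, Ces1h and Ces2d-ps had at most 10 counts and Ces2h at most 14, and Ces2b had 150 counts in WT 3, 16 in WT 2 and at most 3 elsewhere.

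Members varied together across libraries to different degrees. Among the 45 pairs of members, Pearson correlations of log2 CPM over the 6 libraries ran from 0.295 (Ces1c with Ces2c) to 0.991 (Ces2e with Ces3a), with a median of 0.886, and 19 pairs exceeded 0.9. All points share the same 6 libraries and the group difference. By the rule for genes of like pattern, those nearest to Ces4a were Pdilt, Zkscan7 and Inpp5f (r = 0.999, 0.998 and 0.998). Nearest to Ces2a were Tulp4, Gphn and Cdc42bpa (r = 0.996, 0.995 and 0.994), and nearest to Ces1g were Sh3rf1, Apoa1 and 2310022B05Rik (r = 0.998 for each). These were picked as the 3 highest values among all eligible genes over only 6 libraries, so they are high by selection and only a description. The Ces4a values in KO also rest on 2 to 6 counts. Of the 9 genes Pdilt alone was called as lower in KO (log2 difference -1.79, adjusted p = 0.0383 in edgeR). The Pdilt call was lost without KO 2, KO 3, WT 2 or WT 3 (adjusted p = 0.118 to 0.186). It was also lost in limma voom (adjusted p = 0.0632) and with a replicate block (adjusted p = 0.0859).

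Other enzymes that cleave lipid and drug esters were examined as a list of 21 genes, of which 20 were tested. Of these, 3 were called as lower and 1, Gusb, as higher, beside 1.22% and 2.15% of all genes. Unadjusted p-values were under 0.05 for 9 of the 20, and for 26.3% of all genes. The median log2 difference was -0.21. In the Y libraries Aadac, Nceh1, Lipc, Lipe, Mgll, Abhd6, Pon1 and Ephx2 were called as lower, beside 16.1% of all genes. Pnpla2, Bche and Gusb were called there as higher (17.2% of all genes), and the rest of the list was not called. Abhd6, a monoacylglycerol lipase, had 19.2, 16.7 and 17.6 CPM in KO and 31.3, 36.8 and 38.8 CPM in WT, and fell by 1.00 on the log2 scale (SE 0.128, adjusted p = 0.0188 in edgeR). All KO values were close to each other and under WT, without the step between KO 1 and the other KO libraries seen in most carboxylesterases. Other genes of the list had that step, such as Aadac (403, 166 and 225 CPM in KO), Lipc (130, 22.8 and 43.6) and Pon1 (700, 176 and 372). Pnpla2 was lowest in KO 1 (52.1, 143 and 96.4 CPM), and these genes were named after their values were seen. Hormone-sensitive lipase (Lipe) and the neutral cholesterol ester hydrolase Nceh1 fell by 0.79 and 0.62 (adjusted p = 0.0405 and 0.0467). Of 14 alternative analyses, Abhd6 was called in 9, Lipe in 7 and Nceh1 in 6. All 3 calls were lost with a replicate block (adjusted p = 0.0663, 0.0869 and 0.0863) and without KO 2, KO 3, WT 2 or WT 3 (adjusted p = 0.0621 to 0.215). Those of Lipe and Nceh1 were also lost without WT 1 (adjusted p = 0.0717 and 0.103) and with library size alone (adjusted p = 0.0624 and 0.0850). The Nceh1 call was lost with no filter on low counts too (adjusted p = 0.0535).

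Genes of triacylglycerol synthesis and lipoprotein assembly, the route that Ces1d feeds, gave 0 calls among 12 tested over all 6 libraries (3.37% of all genes). Of the 12, 5 had an unadjusted p-value under 0.05 (26.3% of all genes) and 10 were negative, with a median log2 difference of -0.33. In the Y libraries Mttp, Apob, Fitm1, Fitm2 and Plin2 were called as lower, beside 16.1% of all genes. Dgat1 and Tm6sf2 were called there as higher (17.2% of all genes), and the rest of the list was not called. Dgat1, which makes triacylglycerol in the endoplasmic reticulum, had 19.6, 40.7 and 32.6 CPM in KO and 13.7, 16.0 and 14.6 CPM in WT (log2 difference 1.07 ± 0.258, adjusted p = 0.0696 in edgeR). Dgat2, the second such enzyme, had 288, 252 and 284 CPM in KO and 426, 392.3 and 345 CPM in WT (-0.50 ± 0.16, adjusted p = 0.116). The KO libraries were all higher for Dgat1 and all lower for Dgat2.

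Transcription factors known to act on carboxylesterase genes gave 1 call as lower and 0 as higher among 15 tested over all 6 libraries, with a median log2 difference of -0.49. Unadjusted p-values were under 0.05 for 9 of the 15, and for 26.3% of all genes. The called gene was Nr0b2, the orphan receptor SHP that represses other nuclear receptors, with 18.9, 14.8 and 17.5 CPM in KO and 31.1, 27.8 and 28.7 CPM in WT (-0.77 ± 0.131, adjusted p = 0.0347 in edgeR). Among all genes 1.22% were called as lower. The Nr0b2 call was made in 8 of 14 alternative analyses and lost with a replicate block (adjusted p = 0.0682) and when any library but KO 1 was left out (adjusted p = 0.0830 to 0.167). Some drug and lipid sensors or liver factors are named after their values were seen, for their known roles. The xenobiotic receptor PXR (Nr1i2) had 82.7, 115 and 115 CPM in KO and 60.6 to 61.9 CPM in WT, all KO values being higher (0.76 ± 0.159, adjusted p = 0.0541). The receptors CAR (Nr1i3) and PPAR-alpha (Ppara) had negative differences of -1.25 ± 0.357 and -1.24 ± 0.418 (adjusted p = 0.0919 and 0.125), and Hnf4a had 0.20 ± 0.164 (adjusted p = 0.470). In the Y libraries Nr0b2, Nr1i3, Nr1h4, Ppara, Rxra, Nr3c1, Cebpa and Stat5b were called as lower, beside 16.1% of all genes. Nr1i2 and Nfe2l2 were called there as higher (17.2% of all genes), and the rest of the list, Hnf4a included, was not called.

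**Figure D4:**
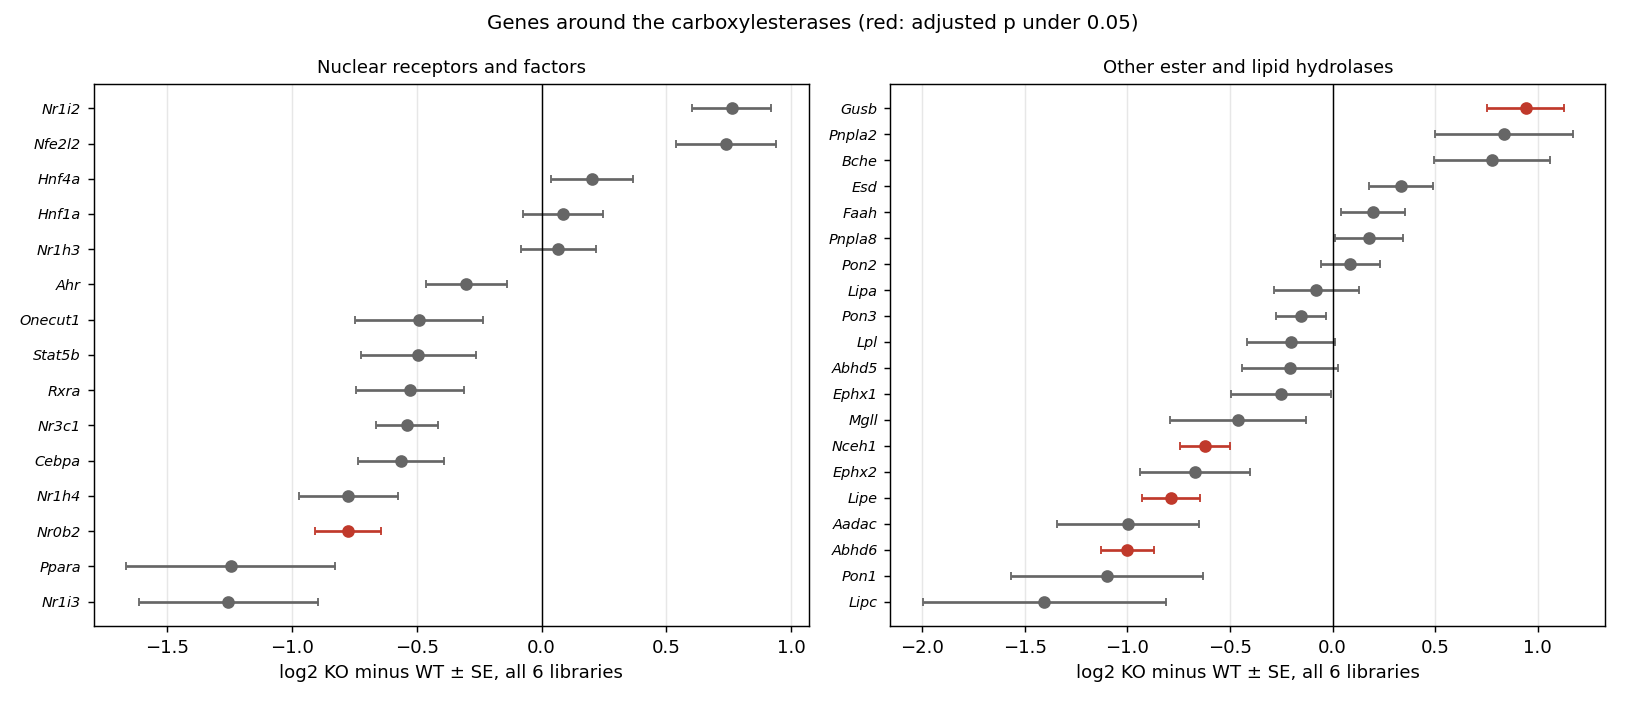
Log2 KO minus WT with SE (x axis) over all 6 libraries for the 15 transcription factors (left) and the 20 tested hydrolases (right), with genes past an adjusted p-value of 0.05 in red. The red points are Nr0b2 on the left and Abhd6, Lipe, Nceh1 and Gusb on the right, and Gusb alone of these is above 0.

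Markers of other cell types were read beside these results. Ces1d is also made by adipocytes, and the 5 adipocyte markers summed to 0 CPM in every KO library and WT 1 and to at most 0.270 CPM in WT 2 and WT 3, while all 5 markers of exocrine pancreas had 0 counts in every library. The 5 endothelial markers summed to 58.5 to 97.6 CPM in KO and 120.4 to 167 CPM in WT. Of these, 0 were called and 4 had an unadjusted p under 0.05, beside 3.37% and 26.3% of all genes. Every KO library lay under every WT library for 4 of the 5, and for 15.5% of all genes. Sums of Kupffer cell markers (45.7 to 116 CPM in KO, 72.4 to 95.8 CPM in WT), stellate markers (93.7 to 191 against 153 to 327 CPM) and bile duct markers (24.8 to 74.2 against 39.5 to 72.7 CPM) overlapped between the groups. The 5 markers of hepatocytes near the central vein summed to 4320 to 7445 CPM in KO and 8803 to 10382 CPM in WT. Oat alone held 3832, 3568 and 4983 CPM of this in KO 1 to KO 3 and 482 to 538 CPM in WT. Cyp1a2 was called as lower (-1.36, adjusted p = 0.0259 in edgeR) and Oat as higher (2.99, adjusted p = 0.0047). Glul, Cyp2e1 and Rgn were also lower in every KO library, at -2.35, -2.41 and -2.29 (adjusted p = 0.170, 0.0640 and 0.252). All 5 were named after their values were seen. The part of these cell-type and zonal differences in the carboxylesterase values was not tested.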

How the data were processed

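Poly(A) RNA libraries (TruSeq, paired reads of 76 nt on a NextSeq, per the labels' protocols) were made from 6 mice. The authors deposited a table of expected counts per gene, not normalized. The submitters' processing notes name bcl2fastq 2.17, cutadapt 1.18, STAR 2.7.0f and RSEM 1.3.1 and the build mm9, and the use of strand is not given in the sources used here. All 55450 versioned gene identifiers and symbols are those of GENCODE M21, which is on GRCm38 and not mm9, so gene models and coordinates were taken from M21. Promoter sequences are from RefSeq (GRCm38.p6), which held a window for 7 of the 10 members; open reading frames were read from M21 transcripts. Library totals ran from 47659122 to 56147667 counts, at which 3 counts correspond to 0.0515 to 0.0641 CPM.

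Groups and replicate numbers come from the titles and columns from the descriptions; 0 columns were left without a sample. Expected counts were rounded, filtered with filterByExpr, normalized by TMM (trimmed mean of M-values) and tested with edgeR 4.0.16's quasi-likelihood test in R 4.3.3 with the group as the only term. P-values were adjusted by Benjamini-Hochberg over the 14539 genes tested, with a threshold of 0.05. SE is the log2 difference divided by the square root of the F statistic. Log2 CPM for correlations used a prior count of 2. Ratios of single libraries used an offset of 0.1 CPM. Per-kilobase values divide CPM by the union of a gene's exons. The test was tested on simulated counts. DESeq2 1.42.0 and limma 3.58.1 (voom) were alternatives, as were other scaling, no filter, a replicate block, a term for Xist state, the 4 Y libraries, and leaving out each library. The labels do not pair the mice by replicate number.

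The members, gene lists and tests were chosen with earlier results of these data known. Named genes are all members, the other family rows, Stk11, list genes past the threshold (or, with none, the 2 of smallest adjusted p-value), and the 3 genes most like each of the 3 members of smallest adjusted p-value (mean CPM of at least 1); others are said to be chosen afterwards. P-values over all 6 libraries measure the spread between mice, 3 a group, and those in the Y libraries the spread of 2 a group. In the interaction test the Xist state has 1 library a group. The spread in that test therefore comes from the Y libraries alone.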

Additional observations from a re-analysis of the deposited data

Results flagged for a closer look

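The difference between KO and WT differed between the Y libraries and the Xist pair for Ces2e, Ces3a, Ces3b, Ces2g and the Ces3 sum, by a test of the interaction itself in edgeR. The log2 difference was more negative in the Y libraries by -3.54 for Ces2e (adjusted p = 0.00508), -6.26 for Ces3a (adjusted p = 0.0139), -5.17 for Ces3b (adjusted p = 0.00343), -1.53 for Ces2g (adjusted p = 0.0253) and -6.07 for the Ces3 sum (adjusted p = 0.0129). The Ces3 sum holds the counts of Ces3a and Ces3b and is not a separate result. For Ces2e both KO libraries with Y-linked counts lay under both WT libraries of that state, whereas KO 1 and WT 1 had 138 and 148 CPM. For Ces3a KO 1 was above WT 1, at 1026 against 794 CPM. The Xist state is 1 library in each group, so these p-values do not measure the spread between mice in that state. KO 1 also had the most Stk11 of the KO libraries, 22.1 CPM, whose part in the result was not tested.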

How the results depend on the processing

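All 10 members kept a negative log2 difference in all 14 alternatives, and which of them were called depended on the analysis. The number of members called as lower was 1 over all libraries, beside 1.22% of all genes tested. It was 2 with library size alone (0.901% of all genes tested in that analysis), 3 with no filter on low counts (1.21%) and 8 in DESeq2 (7%). It was 0 in limma voom (1.22%), 0 with a replicate block (0.179%), 5 with a term for the Xist state (4.99%) and 10 in the Y libraries (16.1%). Leaving out 1 library gave 0 to 9. It was 9 without KO 1 (14.2% of all genes), 1 without WT 1 (0.737%) and 0 without KO 2, KO 3, WT 2 or WT 3 (0.0941%, 0.0267%, 0.00668% and 0.02%). The number of all genes called, 490, was 771 with no filter, 2288 in DESeq2, 105 with the replicate block, 1504 with the Xist term and 4847 in the Y libraries, and leaving out 1 library gave 6 (without WT 2) to 4473 (without KO 1). Scaling by library size alone made the share of higher genes among all calls 74.4% in place of 63.9%. The labels give no pairing by replicate number, and deviations of same-numbered libraries correlated at 0.178, 0.0443 and 0.0679. KO 1 alone matched the WT library of its own number best. Such values cannot exclude a shared handling of same-numbered samples. Replicate 1 is the Xist pair, so the replicate block also holds the Xist state. The Ces1 sum was past the threshold in DESeq2 (-1.40), with the Xist term (-1.50) and in the Y libraries (-1.76), and ran from -1.94 to -1.12 with a library left out. The Ces2 sum was past it with no filter (-1.39), in DESeq2 (-1.39) and in the Y libraries (-1.88), and ran from -1.70 to -1.17. The Ces3 sum was past it in the Y libraries (-6.02), and ran from -5.68 to -1.97. In DESeq2 the Ces3 sum had no adjusted p-value. Under the replicate block the 3 sums were -1.51, -1.42 and -4.61, none past the threshold. The interaction with the Xist state, whose alternatives were chosen after seeing the data, was called for 1607 of 23717 genes and 8 members with no filter. With the filter it was called for 421 of 14539 genes and 2 members. It was not refitted with a library left out. The cause of these changes was not tested. Ces4a is limited by depth, with at most 6 counts in a KO library.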
